A study of Mus musculus with 6 samples.

Results

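Imprinted genes are expressed mainly or wholly from the copy inherited from either the mother or the father. Several of them form a network that controls growth before and shortly after birth: the paternally expressed Igf2 encodes a growth factor, while the maternally expressed Igf2r encodes the receptor that removes it, and H19, Meg3, Plagl1, Cdkn1c and Grb10 are further members known to act on growth. Many of these genes lie in clusters in which a differentially methylated control region and a long noncoding RNA set which parental copy is read. The genes described here were 35 imprinted genes chosen by symbol, which stand in 35 of the 23367 gene entries measured and belong to 14 loci. The choice used gene names and not measured values, but it was made with earlier results of these data known. The parental copy is given from general knowledge of each gene, because reads from the 2 copies cannot be told apart in a table of totals per gene.

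The RNA came from gastrocnemius, a calf muscle, of wild-type FVB mice at embryonic day 18.5 (E18.5), postnatal day 2 (PN2), PN14, PN28 and 22 weeks (adult). There were 6 libraries of polyadenylated RNA, with 2 replicates at PN14 and 1 library at each other stage. Several male and female mice were pooled for the E18.5 library and several males for the PN2 library, and each other library came from a single male. Each library carried its own sequencing lane in the column headers, so lane and stage cannot be told apart. Total counts ranged from 125402932 to 157868359 per library. The tissue label could be checked against 8 muscle fibre genes, which together gave between 32420 and 129800 FPKM (fragments scaled to gene length and library total) in every library. Levels below are FPKM as deposited, and values in library order run from E18.5 over PN2, PN14 replicate 1, PN14 replicate 2 and PN28 to the adult. Changes are log2 fold changes of TMM-scaled counts from edgeR's quasi-likelihood test, and a gene was called when its Benjamini-Hochberg adjusted p was under 0.05 and its change was at least 2-fold. Replicates exist at PN14 alone, and the test takes their spread as that of each stage. It also draws the spread of each gene toward that of the other genes, so an SE is not the gene's own replicate difference alone.

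The imprinted genes took 5.33% of all counts at E18.5 and 5.12% at PN2. PN14 replicates 1 and 2 had shares of 0.814% and 1.54%, PN28 had 0.419%, and the adult library had 0.190%. H19 alone took 1.94% of the E18.5 counts and 0.0155% of the adult counts. At E18.5, 14 of the 35 genes were at or above 100 FPKM, and in the adult 1 was, Gnas. The fall was not shared by every member, and the loci differed in how far and when they fell. In whole muscle, fewer cells of a type and less RNA per cell cannot be told apart.

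**Figure D1:**
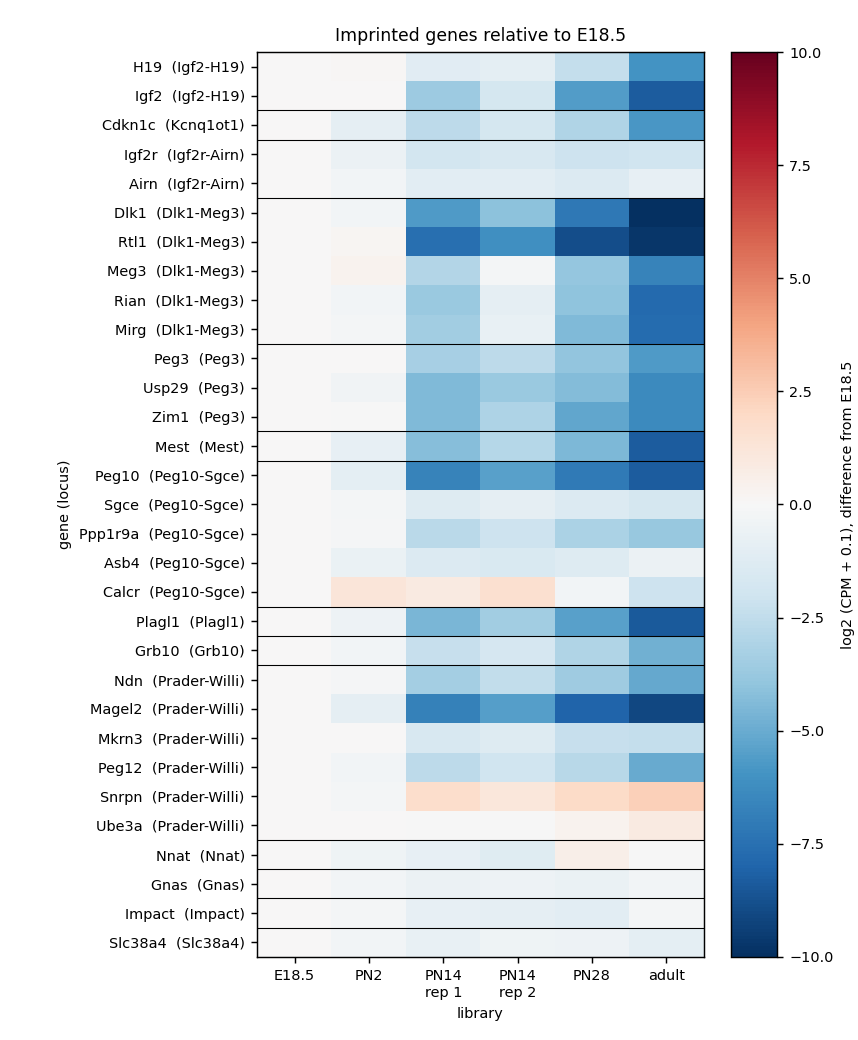
Heat map of the 31 imprinted genes that reached 1 FPKM in at least 1 library (rows, by locus) in the 6 libraries (columns). Colour gives the difference from the E18.5 library in log2 of TMM-scaled CPM (counts scaled to the library total) plus 0.1. Most rows turn blue between PN2 and PN14, Snrpn turns red, and the rows of Gnas, Impact, Nnat and Slc38a4 stay pale.

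From E18.5 to PN2, 0 of the 35 imprinted genes were called by edgeR's quasi-likelihood test (0.0296% of the 16882 genes tested were called), and 2 had an unadjusted p under 0.05, Asb4 and Calcr. Neither DESeq2 nor the exact test of edgeR called any. From PN2 to PN14, 16 of the 35 fell, where 11.2% of all genes tested fell, and 1 rose. In either direction 17 of the 35 were called, where 23.0% of all genes were. Their median log2 fold change was -1.46, and that of all genes tested was -0.012.

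From PN14 to PN28, 0 imprinted genes were called (0.0178% of all genes), with 12 at an unadjusted p under 0.05, and DESeq2 and the exact test each called 6, of which 5 were lower at PN28 and 1, Nnat, was higher. From PN28 to the adult, 0 were called (0.521% of all genes), with 17 at an unadjusted p under 0.05, and DESeq2 called 10 and the exact test 14. The percentages of all genes are those of the quasi-likelihood test. Shares of all genes called by DESeq2 or the exact test, or at an unadjusted p under 0.05, were not counted. The numbers from those settings thus have no background beside them. Without a test, 11 of the 30 imprinted genes above 1 CPM were at least 2-fold lower at PN28 than at PN14, where 1.38% of all genes above this floor were, and 1, Nnat, was 2-fold higher. The 12 that differed 2-fold in either direction became 19 without PN14 replicate 1 and 5 without PN14 replicate 2. A further 16 of 28 were at least 2-fold lower in the adult than at PN28, where 7.29% of all genes were.

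Over the whole series, from E18.5 to the adult, 25 of the 35 fell, where 23.6% of all genes tested fell, and 1 rose. In either direction 26 were called, where 44.9% of all genes were. The median log2 fold change was -5.12, against -0.053 for all genes tested, and it was -4.84 with Phlda2, which had 0 adult counts, set at its bound. Among the 25 that fell, the interval with the largest drop was PN2 to PN14 for 14, PN28 to adult for 10 and PN14 to PN28 for 1, Igf2. These intervals depend on the PN14 library: on log2 of CPM plus 0.1, PN2 to PN14 held the largest drop for 19 with PN14 replicate 1 alone, Igf2, Meg3, Mirg, Grb10 and Peg12 among them, and for 14 with replicate 2 alone, where PN14 to PN28 held it for 4. The libraries were also compared as perinatal (E18.5 and PN2) against later (the other 4). In that fit 18 of the 34 genes tested fell, where 15.6% of all 16373 genes fell, and 1 rose. In either direction 19 were called, where 31.1% of all genes were. Without the E18.5 library 4 genes were called, and without any other single library between 14 and 24 were.

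**Figure D2:**
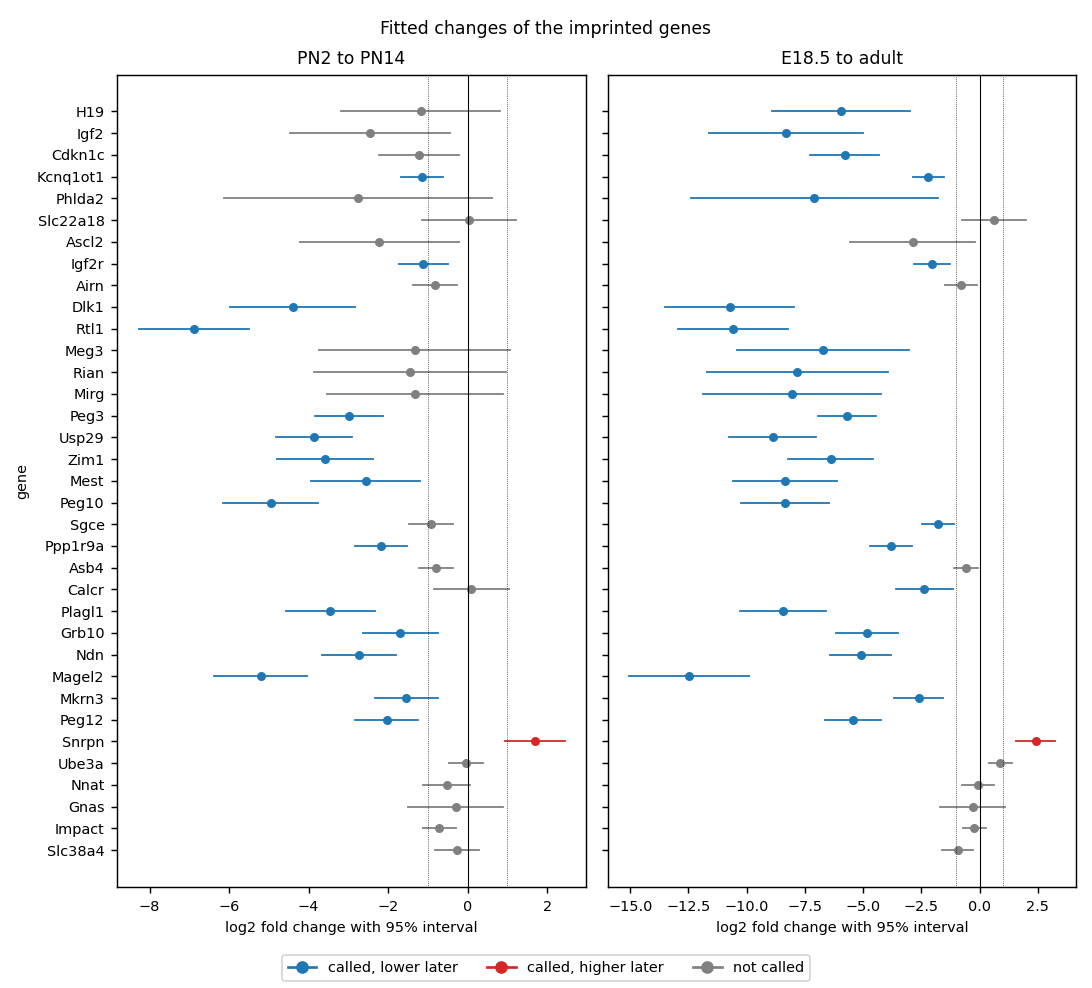
Fitted log2 fold changes of all 35 imprinted genes from PN2 to PN14 (left) and from E18.5 to adult (right), with 95% intervals as bars. Blue points fell, red points rose, and grey points were not called; dotted lines mark a 2-fold change, and the scales of the panels differ. Snrpn is the 1 red point in each panel, and the widest intervals on the left belong to Phlda2 and to H19, Igf2, Meg3, Rian, Mirg and Ascl2.

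H19 and Igf2 lie next to each other on chromosome 7 (H19 at chr7:149761434-149764048 and Igf2 at chr7:149836673-149852721, both on the minus strand of mm9). They share enhancers, and a methylated control region upstream of H19 sets which parental copy makes which RNA. On the maternal copy the insulator protein CTCF binds that region. The 10 kb upstream of the H19 start held 3 matches to CGCGNGGNG, a short core of the CTCF motif, searched on both strands. They are printed because this region governs both genes, on the minus strand with the core in capitals, and lie 2170, 2625 and 3895 bases upstream of the H19 start, at chr7:149766208-149766237, chr7:149766663-149766692 and chr7:149767933-149767962:
site 1: acagacgatgcCGCGTGGTGgcagtacaat
site 2: acggatgctacCGCGCGGTGgcagcatact
site 3: gcgggagttgcCGCGTGGTGgcagcaaaat
Of the 14188 windows of this length along the chromosome, 6.79% held at least 1 such core and 0.754% held at least 3. A match describes the letters only.

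H19, a maternally expressed long noncoding RNA, stood at 7578, 8279, 1981, 2694, 777 and 60.4 FPKM in library order. Igf2 was at 2434, 2489, 115, 497, 27.4 and 3.79 FPKM. Every later library lay below both perinatal libraries for each gene, and the adult library was the lowest. The PN14 replicates differed 4.31-fold for Igf2 in FPKM, against 1.36-fold for H19. From E18.5 to the adult H19 fell by 5.94 ± 1.20 on the log2 scale (SE, adjusted p = 0.00890) and Igf2 fell by 8.31 ± 1.35 (adjusted p = 0.00442). From PN2 to PN14 neither was called, with log2 fold changes of -1.18 ± 0.81 for H19 (95% interval -3.18 to 0.82, adjusted p = 0.301) and -2.45 ± 0.82 for Igf2 (-4.46 to -0.44, adjusted p = 0.0668). At nearly the same folds H19 was called by DESeq2 (adjusted p = 9.33e-05) and by edgeR's exact test (0.00292), and Igf2 by the exact test (0.000967) and with no filter on low counts (0.0281), but not by DESeq2 (0.19). The 2 genes did not keep a fixed ratio. H19 was 3.11, 3.33, 17.2, 5.42, 28.3 and 15.9 times Igf2 in FPKM, so the ratio was higher in each later library.

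Igf2r, on chromosome 17 (chr17:12875272-12962530 in mm9), fell less than its ligand. Its FPKM was 85.5, 56.9, 14.1, 19.7, 11.1 and 10.3, so that almost all of its decline lay before PN28. It fell by 1.11 ± 0.25 on the log2 scale from PN2 to PN14 (adjusted p = 0.0244) and by 2.03 ± 0.31 from E18.5 to the adult (adjusted p = 0.00376). Igf2 stood 28.5 and 43.7 times as high as Igf2r at E18.5 and PN2 and 0.369 times as high in the adult. Airn is the paternally expressed noncoding RNA that silences the paternal Igf2r copy, and it overlaps Igf2r on the opposite strand. It was at 14.8, 12.8, 5.16, 5.44, 3.88 and 6.66 FPKM in library order. Airn changed by less than 2-fold from PN2 to PN14, at -0.83 ± 0.23, and from E18.5 to the adult, at -0.80 ± 0.27 (adjusted p = 0.0409 and 0.0478 by edgeR's quasi-likelihood test). At PN28 its scaled counts were 37.9% of the E18.5 level. Whether counting used the strand is not given in the sources used here, so reads of Airn and of Igf2r introns cannot be told apart, and the same holds for Kcnq1ot1, which runs antisense to Kcnq1.

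**Figure D3:**
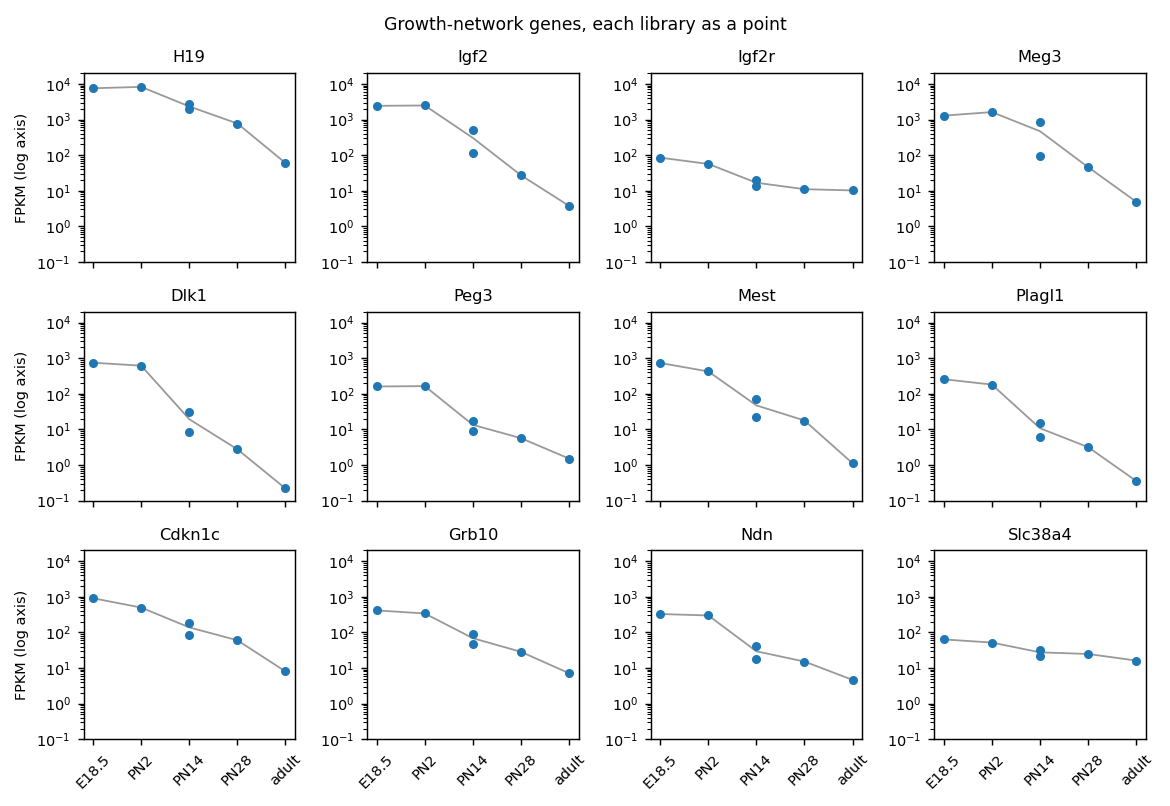
FPKM (log axis, the same range in each panel) of the 12 growth-network genes by stage. Each point is 1 library, PN14 has 2 points, and the line joins stage means. The line falls in every panel from PN2 on, by the least in Slc38a4, and the PN14 points lie furthest apart for Meg3.

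The Dlk1-Meg3 cluster on chromosome 12 pairs 2 paternally expressed coding genes with 3 maternally expressed noncoding RNAs. Dlk1 (chr12:110691033-110701546), a transmembrane ligand related to Notch ligands, was at 746, 615, 8.70, 29.96, 2.77 and 0.22 FPKM. Rtl1, a retrotransposon-derived gene, was at 55.1, 62.1, 0.16, 0.53, 0.05 and 0.02 FPKM. Both PN14 mice were thus far below PN2 for these genes: Dlk1 fell by 4.40 ± 0.64 on the log2 scale from PN2 to PN14 (adjusted p = 0.00838), and Rtl1 fell by 6.89 ± 0.57 (adjusted p = 0.00333). From E18.5 to the adult their log2 fold changes were -10.73 ± 1.12 and -10.58 ± 0.96 (adjusted p = 0.00158 and 0.00129).

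Meg3 (chr12:110779211-110809936), a noncoding RNA that begins the maternal transcripts of the cluster, was at 1292, 1624, 95.01, 849, 46.4 and 4.98 FPKM. Rian, which follows it and carries small nucleolar RNAs, was at 1029, 864, 46.3, 381, 33.3 and 2.23 FPKM, and Mirg, which carries microRNAs, at 101, 85.8, 5.12, 41.2, 2.44 and 0.19 FPKM. PN14 replicate 2 was 8.94 times replicate 1 in FPKM for Meg3, 8.24 times for Rian and 8.04 times for Mirg. Scaled counts of Meg3 were 13.2% of the E18.5 level in replicate 1 and 89.5% in replicate 2, while those of Dlk1 were 2.01% and 5.80%. None of the 3 was called from PN2 to PN14, where Meg3 changed by -1.34 ± 0.98 (95% interval -3.74 to 1.07, adjusted p = 0.329), but from E18.5 to the adult all 3 fell, with log2 fold changes of -6.72 ± 1.5 for Meg3, -7.83 ± 1.58 for Rian and -8.05 ± 1.54 for Mirg (adjusted p = 0.0126, 0.00892 and 0.00745). The noncoding RNAs kept closer ratios among themselves than with Dlk1: Rian was between 0.448 and 0.797 times Meg3 in FPKM over the 6 libraries, while Dlk1 was 0.578 and 0.379 times Meg3 at E18.5 and PN2 and between 0.0353 and 0.0916 times in the later libraries. The difference between coding and noncoding genes was not tested.

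**Figure D4:**
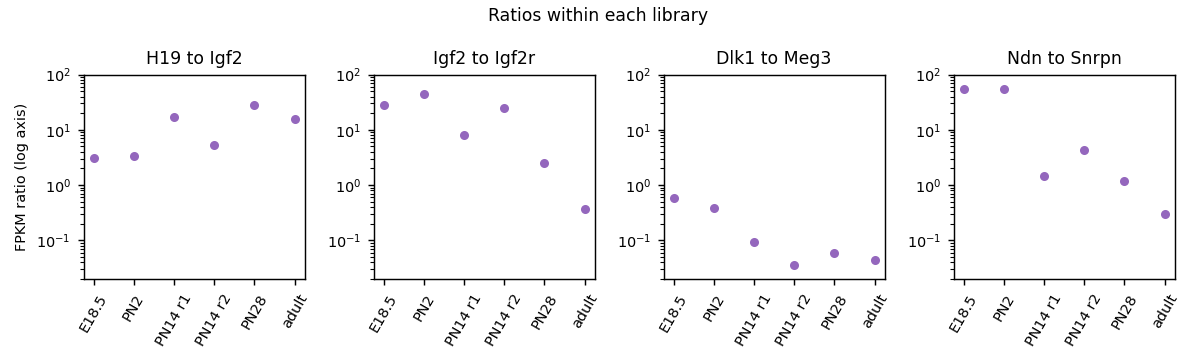
Ratios of FPKM within each library (log axis, the same range in each panel) for H19 to Igf2, Igf2 to Igf2r, Dlk1 to Meg3 and Ndn to Snrpn. Each point is 1 library. The H19 to Igf2 ratio lies between 3.11 and 28.3, while the Ndn to Snrpn ratio runs from 53.9 at E18.5 to 0.294 in the adult.

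Several of these transcripts carry microRNAs, whose seed (bases 2 to 8) pairs with target messages. H19 holds miR-675, Igf2 holds miR-483, Mest holds miR-335, and miR-127, miR-433 and miR-136 lie opposite Rtl1, on the strand of Meg3. Their mature sequences are printed to show what these host RNAs carry, from RefSeq (GRCm38.p6), with the seed in capitals:
mmu-miR-675-5p: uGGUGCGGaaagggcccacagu
mmu-miR-675-3p: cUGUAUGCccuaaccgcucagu
mmu-miR-483-5p: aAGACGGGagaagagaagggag
mmu-miR-483-3p: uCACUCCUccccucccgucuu
mmu-miR-335-5p: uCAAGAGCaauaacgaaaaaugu
mmu-miR-127-3p: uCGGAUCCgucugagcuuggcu
mmu-miR-433-3p: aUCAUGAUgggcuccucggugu
mmu-miR-136-5p: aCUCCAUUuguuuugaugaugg
No 2 of these 8 share a seed. Between the start of Meg3 and the end of Mirg the same reference places 54 microRNA hairpins on the strand of Meg3. Those on the other strand were not counted. Of these, 52 had an entry among the measured genes and all 52 had 0 counts in every library, which allows up to 3 counts each, or 0.0131 to 0.0295 TMM-scaled CPM depending on the library. Libraries of long polyadenylated RNA do not measure mature microRNAs, so the levels above are those of the host RNAs.

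The 3 genes of the Peg3 locus on chromosome 7 fell together. Peg3 (chr7:6656603-6683132), a paternally expressed zinc finger gene that acts on growth, was at 161, 164, 9.24, 17.6, 5.69 and 1.52 FPKM. Zim1, its maternally expressed neighbour and also a zinc finger gene, was at 78.8, 76.1, 2.06, 6.26, 1.17 and 0.46. Every later library was below both perinatal ones. From PN2 to PN14 both fell, with log2 fold changes of -2.99 ± 0.34 for Peg3 and -3.59 ± 0.49 for Zim1 (adjusted p = 0.00558 and 0.00728). Between E18.5 and the adult their log2 fold changes were -5.69 ± 0.50 and -6.40 ± 0.74 (adjusted p = 0.00126 and 0.0019). Usp29, a ubiquitin protease gene that starts beside Peg3, had 1.92, 1.5, 0.04, 0.09, 0.04 and 0.00 FPKM, and fell by 3.87 ± 0.39 from PN2 to PN14 (adjusted p = 0.00458). It had 2213 counts at E18.5 and 2 in the adult, a ratio of 491 after scaling with an interval of 136 to 4060 from counting error alone.

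Mest, Plagl1 and Grb10 stand at loci of their own. Mest (chr6:30673547-30698457), a paternally expressed gene of the hydrolase family, was at 733, 424, 22.6, 71.9, 17.8 and 1.12 FPKM. Plagl1 (chr10:12810497-12851500), a paternally expressed zinc finger factor known to regulate other imprinted genes, was at 256, 181, 6.10, 15.5, 3.19 and 0.36 FPKM. Grb10 (chr11:11830511-11938686), an adaptor that restrains insulin and IGF receptor signalling and is expressed maternally in muscle, was at 414, 339, 48.6, 88.6, 28.5 and 7.14 FPKM. No later library reached the perinatal range for any of these. From PN2 to PN14 all 3 fell, with log2 fold changes of -2.57 ± 0.55 for Mest, -3.46 ± 0.45 for Plagl1 and -1.70 ± 0.38 for Grb10 (adjusted p = 0.0210, 0.00682 and 0.0239). Between E18.5 and the adult they changed by -8.36 ± 0.92, -8.45 ± 0.75 and -4.84 ± 0.54 (adjusted p = 0.00175, 0.00126 and 0.00180).

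Cdkn1c (chr7:150644255-150646955), a maternally expressed inhibitor of cyclin-dependent kinases in the Kcnq1ot1 domain, was at 907, 496, 87.1, 189, 59.99 and 8 FPKM. It fell by 5.80 ± 0.60 on the log2 scale from E18.5 to the adult (adjusted p = 0.00157), and its change of -1.23 ± 0.41 from PN2 to PN14 was not called (adjusted p = 0.0672), although DESeq2 (adjusted p = 0.00217), edgeR's exact test (0.00914) and the fit with no filter (0.0365) called it. The 4 other genes of the set in this domain never reached 1 FPKM. Kcnq1ot1, the noncoding RNA that silences the domain on the paternal copy, was highest at 0.23 FPKM, at E18.5, and fell by 1.15 ± 0.21 from PN2 to PN14 (adjusted p = 0.0148). Its low FPKM, a value scaled to gene length, did not mean few reads. Kcnq1ot1 had 3049 counts at E18.5 (13.3 TMM-scaled CPM), where Airn had 2152, and 292 in the adult. It also fell from E18.5 to the adult, with a log2 fold change of -2.213 ± 0.27 (adjusted p = 0.002099). Slc22a18, a transporter, peaked at 0.42 FPKM and Ascl2, a basic helix-loop-helix factor, at 0.14. Phlda2, which restrains placental growth, had 25, 7, 0, 1, 0 and 0 counts, so from E18.5 to the adult it was at least 3.7-fold lower, against a floor of 3 counts per library.

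Within the Peg10-Sgce cluster on chromosome 6 the members parted. Peg10 (chr6:4697306-4710514), a paternally expressed retrotransposon-derived gene, was at 149, 75.3, 0.85, 2.34, 0.59 and 0.22 FPKM and fell by 4.95 ± 0.49 on the log2 scale from PN2 to PN14 (adjusted p = 0.00431). Its back-to-back neighbour Sgce, which encodes epsilon-sarcoglycan of the muscle membrane complex, was at 31.2, 27.9, 7.18, 11.8, 6.44 and 4.41 FPKM, and changed by -0.93 ± 0.23 over that interval, under the 2-fold limit. Both fell from E18.5 to the adult, Peg10 with a log2 fold change of -8.36 ± 0.76 and Sgce with -1.79 ± 0.28 (adjusted p = 0.0013 and 0.00394). Peg10 was thus 4.78 times Sgce at E18.5 and 0.0499 times in the adult. Ppp1r9a, an actin-binding gene, was at 11.2, 10.1, 1.02, 1.88, 0.66 and 0.39 FPKM and fell by 2.17 ± 0.27 from PN2 to PN14 (adjusted p = 0.00596). Calcr, the calcitonin receptor gene, which marks quiescent satellite cells, followed another course: it was at 0.78, 1.84, 0.86, 1.69, 0.34 and 0.07 FPKM, with PN2 highest in FPKM. In TMM-scaled CPM PN14 replicate 2 was highest, at 5.77 against 4.35 at PN2. Calcr fell by 2.37 ± 0.50 from E18.5 to the adult (adjusted p = 0.0103).

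The Prader-Willi cluster on chromosome 7 held falls and the single rise. Ndn (chr7:69493163-69494814), a paternally expressed gene that restrains growth and is active in muscle and nerve, was at 328, 298, 17.98, 40.8, 15.2 and 4.64 FPKM. Magel2, its relative, was at 19.2, 10.2, 0.09, 0.27, 0.02 and 0.00 FPKM. Both were lower in every later library. Mkrn3, a ring finger gene, was at 1.84, 1.87, 0.33, 0.49, 0.18 and 0.15 FPKM, and Peg12 at 6.77, 5.46, 0.60, 1.12, 0.50 and 0.08. All 4 fell from PN2 to PN14, with log2 fold changes of -2.73 ± 0.38 for Ndn, -5.21 ± 0.47 for Magel2, -1.54 ± 0.32 for Mkrn3 and -2.04 ± 0.32 for Peg12 (adjusted p = 0.00745, 0.00389, 0.0194 and 0.00986). From E18.5 to the adult the log2 fold changes of Ndn, Mkrn3 and Peg12 were -5.12 ± 0.54, -2.63 ± 0.42 and -5.45 ± 0.49 (adjusted p = 0.00158, 0.00425 and 0.00127). Magel2 had 13971 counts at E18.5 and 1 in the adult, a ratio of 6200 with a counting interval of 1110 to 245000.

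Snrpn (chr7:67127388-67285105), a paternally expressed gene for a splicing protein that shares its transcript with Snurf, was at 6.08, 5.42, 12.3, 9.55, 12.7 and 15.8 FPKM. All 4 later libraries were above both perinatal ones. It rose by 1.69 ± 0.30 on the log2 scale from PN2 to PN14 (adjusted p = 0.0131) and by 2.40 ± 0.34 from E18.5 to the adult (adjusted p = 0.00288). Ndn was 53.9 times Snrpn in FPKM at E18.5 and 0.294 times in the adult. Ube3a, the ubiquitin ligase gene of the same cluster, imprinted in neurons, was at 13.7, 13.8, 7.80, 9.18, 9.51 and 12.3 FPKM. Its scaled change from E18.5 to the adult was 0.87 ± 0.20 (adjusted p = 0.0136, under the 2-fold limit), but -0.15 when libraries were scaled by size alone.

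In all, 7 of the 35 genes had at least 1 CPM in every library and a change under 2-fold both from PN2 to PN14 and from E18.5 to the adult. They were Airn, Asb4, Ube3a, Nnat, Gnas, Impact and Slc38a4. Gnas (chr2:174109821-174172245), which encodes the stimulatory G protein subunit and of which only some transcripts are imprinted, was the highest of them, at 1970, 1655, 807, 1012, 725 and 845 FPKM. From E18.5 to the adult it changed by -0.30 on the log2 scale (95% interval -1.69 to 1.09), an interval that still includes a 2-fold fall. Impact, an inhibitor of the kinase Gcn2, was at 10.9, 9.76, 3.57, 3.99, 2.89 and 4.58 FPKM and changed by -0.23 (-0.72 to 0.27). Nnat, a small membrane protein gene, was at 13.5, 9.70, 4.40, 4.07, 10.7 and 6.22 FPKM and changed by -0.07 (-0.77 to 0.62), with the value at PN28 the highest after birth. From PN14 to PN28 Nnat changed by 1.56 ± 0.24 (unadjusted p = 0.000656, adjusted p = 0.253 by edgeR's quasi-likelihood test), and was called by DESeq2 (adjusted p = 0.00479), the exact test (0.000141) and the fit with no filter (0.0369). Asb4, a ubiquitin ligase adaptor, was at 12.4, 7.73, 2.69, 2.95, 2.79 and 4.04 FPKM and changed by -0.59 (-1.10 to -0.07) from E18.5 to the adult. From PN2 to PN14 Asb4 changed by -0.80 and Impact by -0.71 (adjusted p = 0.0229 and 0.0279 by edgeR's quasi-likelihood test). The lowest scaled counts were 34.5% of E18.5 for Asb4, 37.9% for Airn, 43.8% for Nnat and 49.1% for Impact, all more than 2-fold down. They were 51.9% for Slc38a4, 63.3% for Gnas and 96.7% for Ube3a.

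Slc38a4, an amino acid transporter gene placed in the growth network, was at 63.5, 51.8, 22.3, 32.8, 24.8 and 16.2 FPKM. It changed by -0.94 ± 0.27 from E18.5 to the adult (95% interval -1.61 to -0.28, adjusted p = 0.0278), just under the 2-fold limit, and was the 1 member of the network that was not called there. FPKM carries no scaling between libraries beyond the total. When counts were scaled by library size alone, the median of all genes moved by -0.66 from PN2 to PN14 and by -1.08 from E18.5 to the adult. On that scale Gnas changed by -1.33, Slc38a4 by -1.97, Airn by -1.83, Asb4 by -1.61, Impact by -1.25 and Nnat by -1.10 from E18.5 to the adult. Relative to the median of all genes on the same scale, Slc38a4 and Airn were then the lowest of the 7.

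Seen as groups, the growth network held 12 genes, of which 7 fell from PN2 to PN14 (median log2 fold change -2.07) and 11 fell from E18.5 to the adult (median -5.87). Of the 23 other imprinted genes in the set, 9 fell and 1 rose from PN2 to PN14 (median -1.33), and 14 fell and 1 rose from E18.5 to the adult (median -2.63, or -2.37 with Phlda2 at its bound). By parental copy, 12 of the 19 paternally expressed genes fell from PN2 to PN14 and 1 rose, and 4 of the 14 maternally expressed genes fell. From E18.5 to the adult 14 of 19 and 11 of 14 fell. Over all genes tested 11.2% fell from PN2 to PN14 and 23.6% from E18.5 to the adult. Differences between these groups were not tested.

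Imprinted genes outside the 35 moved in both directions. They were listed from general knowledge, and whether each is imprinted in muscle cannot be read from totals per gene. Of 36 others that were tested, 6 fell and 4 rose from PN2 to PN14 (median -0.11). In that interval 27.8% of them were called, near the 23.0% of all genes, of which 11.2% fell. From E18.5 to the adult 11 fell and 11 rose (median -0.43). There 61.1% of them were called, where 44.9% of all genes were called and 23.6% fell. Of 25 genes tested that border the same loci and are in neither set, 3 fell and 6 rose from E18.5 to the adult (median 0.35). Thus 36.0% of them were called, below the 44.9% of all genes. Whether any of these bordering genes is itself imprinted was not examined. Among 12 genes tested that set or maintain DNA methylation or act at imprinted regions, 5 fell from E18.5 to the adult (23.6% of all genes did). Their log2 fold changes were -4.21 ± 0.46 for Zfp57, -6.93 ± 0.36 for Uhrf1, -2.45 ± 0.24 for Dnmt1, -1.71 ± 0.39 for Dnmt3b and -1.28 ± 0.24 for Trim28 (adjusted p = 0.00176, 0.00103, 0.00139, 0.0133 and 0.00716). Zfp57 and Trim28 act together at imprinted control regions, while Dnmt1 and Uhrf1 copy methylation as DNA replicates.

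Promoters of 29 of the 35 genes (300 bases around each listed start, RefSeq on GRCm38.p6) were searched on both strands for 2 short motifs that do not contain each other. A gene counted when any of its starts held the letters. GGGGCCCC, a core bound by Plagl1, was in 3 of 29 (10.3%), Peg3, Usp29 and Ppp1r9a, and in 1.25% of all 27025 genes. Peg3 and Usp29 start from a shared stretch, so they are not separate cases. TGCCGC, the letters bound by Zfp57 when methylated, were in 9 of 29 (31.0%) and in 13.1% of all genes. The 9 were Igf2, Meg3, Zim1, Mest, Calcr, Plagl1, Grb10, Snrpn and Nnat, which include genes that fell and the gene that rose.

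The PN14 replicates differed in these genes more than in the rest. Of 31 imprinted genes above 1 CPM in either, 25 were higher in replicate 2, where 49.8% of all genes were, and the median ratio of replicate 2 to replicate 1 was 1.54 against 0.999. At least 2-fold higher in replicate 2 were 11 genes, where 1.64% of all genes above the floor were, and 0 were 2-fold lower. Meg3, Rian and Mirg stood highest, at 6.77, 6.89 and 6.72 times in scaled counts, followed by Igf2 at 3.61, Dlk1 at 2.88 and Rtl1 at 2.84. H19 was 1.14 times and Snrpn 0.648 times.

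**Figure D5:**
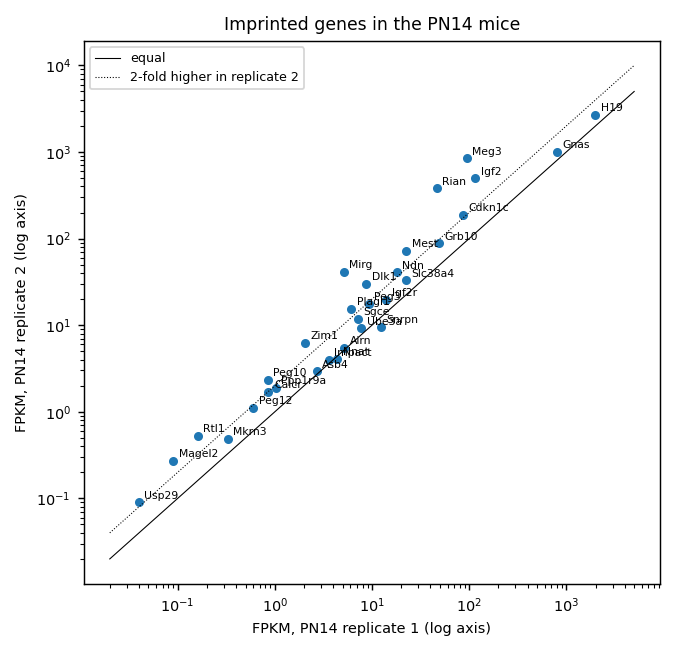
FPKM in PN14 replicate 2 against PN14 replicate 1 (both axes log) for the imprinted genes that reached 1 FPKM in some library. Each point is a gene, the solid line marks equal values and the dotted line a 2-fold higher value in replicate 2. Meg3, Rian and Mirg lie furthest above the dotted line, and Snrpn lies below the solid line.

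Markers of some other cells moved in the same direction as most of the imprinted genes, and those of others did not. In TMM-scaled CPM, all 6 proliferation markers and all 5 neural and Schwann cell markers were higher in PN14 replicate 2 than in replicate 1. On that scale all 8 muscle fibre genes were lower in replicate 2. Summed levels in replicate 2 were 36.6 FPKM for proliferation, 857 for neural and Schwann cell and 101200 for muscle fibre genes. In replicate 1 they were 14.3, 216 and 122500 FPKM. In FPKM Myh1, a muscle fibre gene, was higher in replicate 2, at 1377 against 1238. The 6 proliferation markers summed to 170, 113, 14.3, 36.6, 15.1 and 0.63 FPKM in library order, and all 6 fell from E18.5 to the adult. The 6 fibroblast markers summed to 4522 and 3627 FPKM perinatally and to between 466 and 1533 later, and 4 fell. The 5 satellite cell markers, all of which fell, summed to 74.4 and 65.7 and then to between 8.12 and 23.4. They include Calcr, which is itself among the imprinted genes described above, so this list is not separate from them. Dcn, a fibroblast marker, was likewise counted among the imprinted genes outside the set. The 6 cartilage and bone markers also all fell, from 111 and 62.7 to between 0.46 and 6.01 FPKM, with Ibsp and Bglap at 0 in some libraries. All 5 erythroid and all 3 keratinocyte markers fell as well, whereas 4 of 4 adipocyte and 2 of 5 neural and Schwann cell markers rose and 0 of 4 endothelial markers were called (44.9% of all genes were called and 23.6% fell). Between the PN14 replicates, all 5 satellite cell, all 4 endothelial, 5 of 6 fibroblast and all 3 keratinocyte markers were also higher in replicate 2 in TMM-scaled CPM. Of the others, 1 of 4 adipocyte, 2 of 6 cartilage and bone and 0 of 5 erythroid markers were higher there on that scale, where 49.8% of all genes above 1 CPM were. In FPKM the cartilage and bone markers summed to 5.24 in replicate 1 and to 6.01 in replicate 2. Brain neuron markers never exceeded a summed 0.47 FPKM. The part of these cells in the imprinted genes' levels was not tested.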

How the data were processed

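Polyadenylated RNA of gastrocnemius muscle was measured in 6 libraries (E18.5, PN2, PN14 replicates 1 and 2, PN28 and adult). Reads were mapped by the authors to mm9 with TopHat2 2.0.5, and RSEM (version not given in the sources used here) was run on RefSeq gene models. The deposited expected counts are not normalized, and were rounded here. The deposited FPKM values are scaled by the authors to gene length and library total, with 2 decimals. Totals of 125402932 to 157868359 counts put 3 counts, the floor used here, at 0.0131 to 0.0295 TMM-scaled CPM, and intervals on count ratios cover counting error only.

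Counts were analysed in R 4.3.3 with edgeR 4.0.16 (TMM, filterByExpr, quasi-likelihood test) over the whole table, with Benjamini-Hochberg adjustment over all genes tested. The 5 stages were groups in a fit of 16882 genes with 1 residual degree of freedom, and perinatal against later libraries in a fit of 16373 genes with 4. Called means an adjusted p under 0.05 and a change of at least 2-fold. The p-values of the stage fit rest on the spread between the PN14 samples, shared across genes. Each gene's spread was drawn toward that of the other genes, with 4.86 prior against 1 residual degree of freedom. An SE is thus mostly not the gene's own difference between the PN14 replicates. Counts without a test used log2 of CPM plus 0.1, above 1 CPM. Script steps were tested on simulated data. The alternatives were other scalings, filters, DESeq2 1.42.0, edgeR's exact test, a pseudocount of 1 and each library left out. Coordinates are from GENCODE M1 (mm9), matched for 34 of 35 genes.

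Values in every library are given for each gene reaching 1 FPKM, and the peak or counts for the others. The members and lists were chosen with earlier results of these data known, and the growth network, parental copies and marker lists come from general knowledge.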

Additional observations from a re-analysis of the deposited data

Results flagged for a closer look

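Among the 4 later libraries, Phlda2 had 1 count in PN14 replicate 2 and 0 counts in the other 3, so that library stood apart by the whole range of the group (a gap of 1.0 of the range, above Dixon's 95% critical value for 4 samples). With 0 counts in the other 3, any count in the remaining library gives a gap of 1.0, so the flag carries no weight here. The rate of about 1 in 20 groups flagged by chance need not hold for such counts. The value rests on a single count.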

How the results depend on the processing

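Scaling by library size alone called 30 imprinted genes from PN2 to PN14 (17 with TMM), 15 from PN14 to PN28 (0) and 18 between PN28 and adult (0). This scaling shifted the whole table downward as well, with medians on the log2 scale of -0.662, -0.251 and -0.151 in the same order. How many of all genes it called was not counted, so the 30, 15 and 18 have no background beside them. For PN14 to PN28, DESeq2 called 6, the exact test 6 and no filter 1, whereas for PN28 to adult the numbers were 10, 14 and 8. The perinatal to later count of 19 ranged from 4 to 24 with 1 library left out, with 4 when the E18.5 library was omitted. Without a test, a pseudocount of 1 gave 0 genes at least 2-fold different from E18.5 to PN2 (1 with 0.1), and the 12 from PN14 to PN28 became 19 without PN14 replicate 1 and 5 without replicate 2. The intervals of largest drop with either PN14 replicate alone were computed after seeing the data. The cause was not tested in any of these.

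Some small changes turned direction. With library size alone, Slc22a18 changed by -0.64 and Calcr by -0.53 on the log2 scale from PN2 to PN14, and Slc22a18 by -0.43 and Ube3a by -0.15 from E18.5 to adult. With PN14 and PN28 fitted as 1 group, an alternative chosen after seeing the data, the change after PN2 was -0.28 for Calcr, 0.098 for Ube3a and 0.20 for Nnat. Leaving out PN14 replicate 1 as well gave -0.019 for Slc22a18, -0.26 for Calcr, 0.16 for Ube3a and 0.41 for Nnat, and leaving out replicate 2 gave -0.81, 0.16 and 0.49 for Calcr, Ube3a and Nnat. In those fits between 14 and 23 genes were called from PN2 to PN14. Slc22a18, Calcr, Ube3a and Nnat were not called from PN2 to PN14 in the fit reported.

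No paired analysis was possible because the PN14 libraries alone carry replicate numbers. With 1 library at each other stage, the spread there was not measured.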

Other observations

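3 noncoding neighbours of the described loci were named after their values were seen. Nctc1, which lies beyond H19 and is active in muscle, was at 0.02, 0.24, 40.7, 29.9, 39.9 and 50.2 FPKM in library order (E18.5, PN2, PN14 replicates 1 and 2, PN28, adult) and rose by 7.89 ± 0.48 on the log2 scale from PN2 to PN14 (edgeR adjusted p = 0.00279), while H19 and Igf2 were lower in every library after PN2. Igf2as, antisense to Igf2, was at 29.9, 12.8, 0.27, 0.81, 0.08 and 0.03 FPKM and fell by 3.96 ± 0.48 (adjusted p = 0.00585). Nespas, antisense in the Gnas locus, had 226, 194, 14, 37, 2 and 0 counts, and fell by 2.14 ± 0.49 from PN2 to PN14 (adjusted p = 0.0251), while Gnas itself was not called. Whether counting used the strand is not given in the sources used here, so reads of Igf2as and Igf2, and of Nespas and Gnas, cannot be told apart where they overlap.

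Among imprinted genes outside the 35, Zdbf2, a paternally expressed gene, and Klf14 fell from E18.5 to adult, with log2 fold changes of -8.52 ± 0.72 and -6.11 ± 0.59 (adjusted p = 0.00124 and 0.00138). Pon3 and Pon2, which lie in the Peg10-Sgce cluster, rose by 2.93 ± 0.26 and 2.06 ± 0.23 (adjusted p = 0.00125 and 0.00183), and Slc22a3, of the Igf2r cluster, rose by 3.19 ± 0.47 (adjusted p = 0.00321). Cep41, which borders the Mest locus and was counted with the bordering genes, fell by 5.26 ± 0.35 (adjusted p = 0.00122).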
